A study of Acer rubrum with 15 samples.

Results

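Fragments of small nuclear RNAs (snRNAs) and small nucleolar RNAs (snoRNAs) were followed in small RNA libraries from leaves of red maple, Acer rubrum 'Autumn Blaze', grown from cuttings. The members were the rows of the deposited table typed as snRNA or snoRNA that held 10 or more reads over all 15 libraries. Of 167 such rows, 81 qualified (7 of 10 snRNA rows and 74 snoRNA rows, while 83 snoRNA rows fell below), out of 8849 rows of all types. Each row is an RNA family with an Rfam identifier, not a mapped maple gene, so reads from several gene copies can share a row and no genome position was given.

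Groups of 3 libraries each, 5 in all, were compared. The Control group was untreated, taken on day 0 and labelled as mixed leaves. The labels of all 5 groups give a greenhouse at 25 to 30 °C and 85 to 95% humidity. No light level is given for Control. The other groups were taken on day 14 of a regime. CC had 100% light with days at 30 °C and nights at 20 °C, and CL had 40% light at the same temperatures. LC had 100% light with days at 15 °C and nights at 5 °C, and LL had 40% light at those temperatures. CC and LC therefore share full light, and CC and CL share warmth. All regimes share the cutting material, the labelled greenhouse and the sampling day. The labels call the libraries biological replicates but do not say that they came from separate plants, so each p-value measures only the spread between these libraries.

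Spliceosomal snRNAs are the RNA core of the machine that removes introns. U1 and U2 recognise the ends of an intron, U6 sits in the catalytic centre, and U6atac and U12 do the same work for a rare class of introns. Most snoRNAs guide chemical marks onto ribosomal RNA (rRNA) in the nucleolus, C/D box snoRNAs placing ribose methyl groups and H/ACA box snoRNAs pseudouridines, while U3 and U14 are also needed to cut the rRNA precursor. Plants carry many of these guides in clusters, and families shared with animals or fungi often keep the name first given there. A small RNA library reads short fragments, so the values below count pieces of these RNAs and not their intact molecules.

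The 81 members held 77645 reads, between 0.0138% of a library (CC replicate 1) and 0.0508% (LC replicate 3). Levels are given as RPM, reads per 1000000 reads of the library total, with no correction for RNA length, so they are compared between libraries and not between rows. U6 alone held 42.2% of the members' reads, the first 3 rows (U6, Afu_294 and U2) 69.1% and the first 10 rows 86.1%. The other rows were thin: 35 members had at least 100 reads, 46 had fewer, and 32 had a read in every library. Just inside the minimum stood SNORD48, Z267 and sR49 with 10 reads each. Just outside it stood sR36 with 8 reads and U4, the partner of U6 before splicing starts, and snoR1 with 7 reads each. By row name, 38 members belonged to C/D box guides, 33 had no box class assigned here, 4 were major and 2 minor spliceosomal snRNAs, 3 were snoRNAs of rRNA cutting, and 1 was the row for the yeast form of U1. The names of 51 members are plant or shared names, 11 are animal or human, 9 fungal, 9 archaeal and 1 trypanosomal. A name gives the organism in which a family was described and does not give the source of the reads.

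Library totals ran from 15652847 to 20822592 reads. CC replicate 1 and Control replicate 1 stood low in snoRNA reads, at 35.5 and 64.3 RPM against 97.4 to 229.9 RPM in the other 13 libraries. CC replicate 1 was also the lowest in rRNA reads, with 4747 RPM, and it was the single lowest library for 15 of the 37 members that could be tested. Control replicate 1 was the single lowest for 9 of them. The LC libraries stood high in other noncoding classes: unclassed Rfam families ranged from 1876 to 4106 RPM in LC and from 313 to 1368 RPM elsewhere. Rows of microRNA precursors named after animal families (66 of 89 precursor rows, a list made after their values were seen) summed to 124.9 to 273.3 RPM in LC, 25.6 to 45.4 in CC, 0.961 to 4.73 in CL, 2.48 to 4.07 in LL and 19.1 to 211.1 in Control. Of these animal rows, mir-2, mir-7 and mir-263 had 0 reads in every CL library. The table holds no leaf marker genes, so the labelled tissue could not be checked against any.

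Only 37 members (33 snoRNAs and 4 snRNAs, with 62 to 32758 reads each) passed the low-count filter, and 44 with 10 to 70 reads did not. Tests ran over all 5595 features that passed, 5203 of them predicted siRNAs, with edgeR's quasi-likelihood test and Benjamini-Hochberg adjustment over all features. A call means an adjusted p under 0.05. In these whole-leaf samples, fewer cells of a type and less RNA per cell cannot be told apart. Of the 81 members, 28 had their highest group mean in LC, 19 in CL, 15 in LL, 14 in Control and 5 in CC. Among the 37 tested, 12 had it in LC and 11 in CL, and 16 of the 28 were among the 44 not tested. Some rows reached the minimum of 10 reads only through the group where they were highest. sR10 and SNORD74 did so through LC (18 of 21 and 10 of 14 reads), and SNORD48 through Control (7 of 10). These counts of highest means are therefore partly set by the rule for members. The same count over all features was not made.

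**Figure D1:**
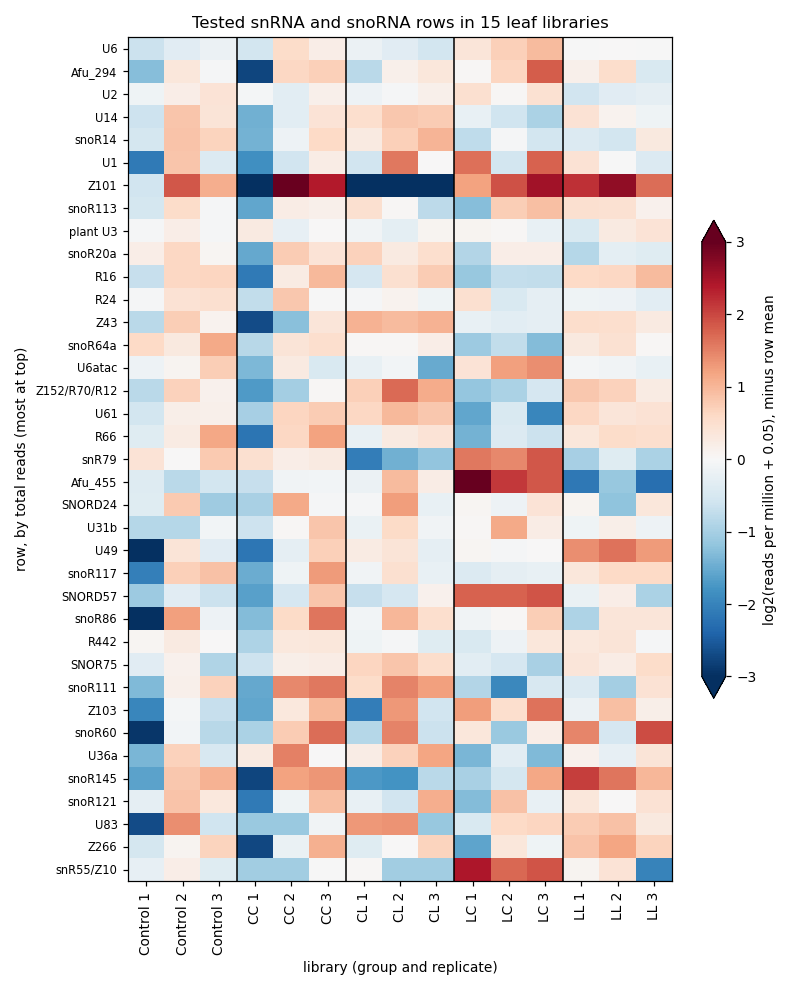
Levels of the 37 tested members (rows, most reads at the top) in 15 libraries (columns, grouped as Control, CC, CL, LC and LL with 3 libraries each). Colour shows log2 of RPM plus 0.05, minus the row's mean; CC replicate 1 is blue in many rows, Z101 is dark blue in all CL libraries, and Afu_455, SNORD57 and snR55/Z10 are red in the LC libraries.

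The snRNA members together were highest in the cold, full-light regime. Their summed level was 199.7, 219.4 and 277.8 RPM in LC, 137.7, 141 and 138.2 in LL, 102.2, 190.5 and 164.2 in CC, 127, 131.2 and 110.7 in CL, and 97.5, 129.4 and 139.8 in Control. Every LC library was above every other library in this sum, most of which is U6. Without U6 the groups overlapped, with 53.8, 33.3 and 58.9 RPM in LC against 24.9 to 42.4 in the other 12 libraries. With U6 the mean was 232 ± 40.6 RPM in LC and 152.3 ± 45.3 in CC (SD, n = 3 each), and no test was made on the sum. snoRNA sums overlapped among all groups, with means of 160 ± 62.6 in LC, 117 ± 71.4 in CC, 125 ± 24.2 in CL, 126 ± 18.8 in LL and 114 ± 44.9 in Control (SD, n = 3 each). Without Afu_294, their most abundant row, the snoRNA means were 71.9 ± 5.76 in LC, 69.4 ± 35.8 in CC, 83.5 ± 9.53 in CL, 78.8 ± 3.22 in LL and 75.7 ± 26.4 in Control.

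U6 (RF00026), the catalytic snRNA, made up 77.6% of the snRNA members' reads. Its level in LC was 145.9, 186.1 and 218.9 RPM, and in Control it was 72.6, 89.8 and 100.2. In CC it was 77.1, 164.9 and 129.7 RPM, in CL 100.2, 88.7 and 77.6, and in LL 111.9, 114.4 and 112.5. The LC libraries lay above all Control, CL and LL libraries, and overlapped with CC through CC replicate 2. U6 rose 2.10-fold from Control to LC (log2 change 1.07 ± 0.27 SE, adjusted p = 0.0141). That call was lost without Control replicate 1 (adjusted p = 0.0683) or LC replicate 3 (0.0634), and when libraries were scaled to named rows only (0.0921), without the pooled exon, intron and intergenic rows that held 67.8 to 86% of each library. LC against CC gave a log2 change of 0.57 ± 0.27 (adjusted p = 0.147), and LL against LC gave -0.70 ± 0.27 (adjusted p = 0.0756), neither called. Without CC replicate 1 the LL against LC difference had an adjusted p of 0.0327 at the same size, in a range of 0.0307 to 0.423 over the alternatives.

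U2 (RF00004), which pairs with the branch point of the intron, had the tightest levels of the abundant snRNAs. It stood at 32.7, 23.9 and 32.4 RPM in LC and at 15.8, 18.5 and 19.4 in LL, so that the lowest LC library was above the highest LL library. In CC it was 22.7, 18.9 and 25.9, in CL 20.98, 22.9 and 26.2, and in Control 21.5, 26.8 and 31.5. U2 fell 1.66-fold from LC to LL (log2 change -0.73 ± 0.24 SE, adjusted p = 0.0413). This call was fragile: it was lost in 14 of 25 alternatives, over which the adjusted p ran from 0.0179 to 0.254. Among single libraries it was lost without LC replicate 1 (0.102), LC replicate 3 (0.123), LL replicate 1 (0.133), LL replicate 2 (0.103), LL replicate 3 (0.0773), CL replicates 1, 2 and 3 (0.0609, 0.0663 and 0.0514) or Control replicate 2 (0.0556). Scaling to named rows shrank the change to -0.41.

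U1 (RF00003), which marks the start of the intron, varied too much within groups for a call. LC held 17.9, 3.90 and 19.5 RPM, CC 1.55, 3.84 and 6.68, CL 3.79, 17.05 and 5.78, LL 7.71, 5.69 and 4.27, and Control 1.27, 10.2 and 4.26. The high libraries, LC replicates 1 and 3 and CL replicate 2, were also the 3 highest in tRNA reads, at 656.9, 1500 and 514.9 RPM against 45.3 to 271.9 in the rest, and the part of this in the result was not tested. LC against CC gave a log2 change of 1.77 ± 0.78 (adjusted p = 0.131).

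U6atac (RF00619), the minor-spliceosome counterpart of U6, stood at 3.07, 5.44 and 6.13 RPM in LC and at 0.874, 2.77 and 1.65 in CC. In CL it was 1.95, 2.16 and 0.771, in LL 2.20, 2.11 and 1.94, and in Control 2.06, 2.43 and 3.88. LC lay above CC, CL and LL without overlap and overlapped with Control. U6atac rose 2.76-fold from CC to LC (log2 change 1.47 ± 0.46 SE, adjusted p = 0.0382), and 15 of 25 alternatives, with adjusted p from 0.00906 to 0.138, lost the call. Leaving out CC replicate 1 gave 0.131, CC replicate 3 gave 0.105, LC replicate 2 gave 0.101 and LC replicate 3 gave 0.133. Leaving out CL replicate 1 or 2, Control replicate 2, or LL replicate 1, 2 or 3 gave 0.0511, 0.0512, 0.051, 0.0562, 0.0575 and 0.0562. LL against LC gave a log2 change of -1.22 ± 0.46 (adjusted p = 0.0707), with an adjusted p of 0.0462 without LC replicate 1, in a range of 0.0373 to 0.209.

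The other spliceosomal rows were too thin to test. U12 (RF00007) had 24 reads in 13 libraries. U5 (RF00020), which holds the exons in place, had 14 reads, 7 of them in LC replicate 3, and none in CC or Control. The row for yeast U1 (RF00488) had 11 reads in 6 libraries. Of the 4 tested snRNAs, U6 rose from Control to LC, U6atac rose from CC to LC, U2 fell from LC to LL, and U1 passed in no comparison.

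**Figure D2:**
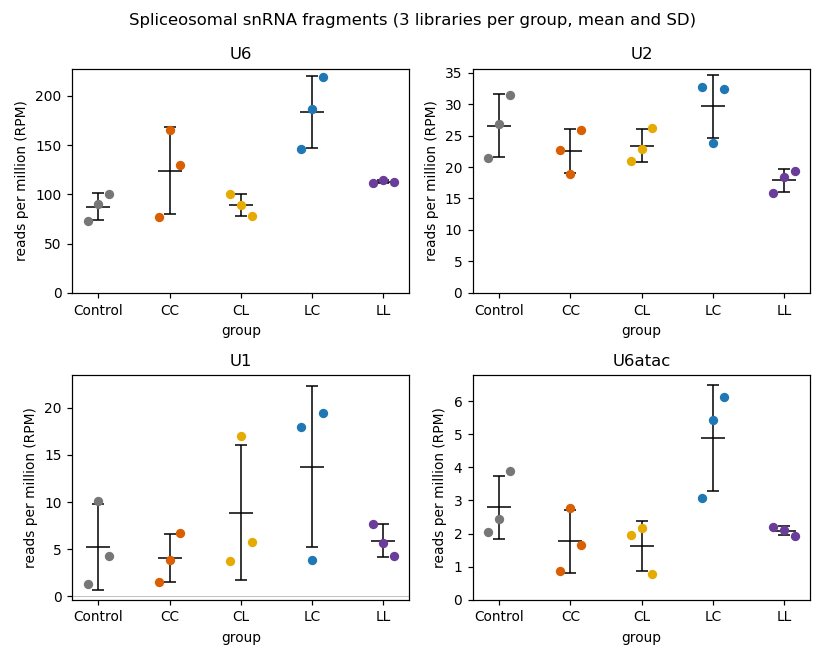
RPM of the 4 tested snRNAs in each library (points, 3 per group) with the group mean (bar) and SD (whiskers); each panel has its own axis from 0. The LC points of U6 and U6atac are the highest of all day 14 groups except for overlap with CC in U6, and U2 has its lowest mean in LL.

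Of the snoRNAs that serve rRNA cutting, U3 was the steadiest of the abundant rows and neither it nor U14 was called. The plant U3 row (RF01847) stayed between 3.52 and 6.55 RPM in all 15 libraries, with means of 4.82 ± 0.528 in LC, 4.98 ± 0.919 in CC, 4.59 ± 0.608 in CL, 5.33 ± 1.60 in LL and 5.06 ± 0.464 in Control (SD, n = 3 each). Its log2 change was -0.05 ± 0.28 in LC against CC and 0.22 ± 0.28 in LL against CL. CC replicate 1, low in most snoRNAs, had 5.92 RPM of plant U3, the highest of its group.

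U14 (RF00016), which also guides a methyl group, stood at 10.01, 7.73 and 6.005 RPM in LC, 4.22, 9.33 and 15.6 in CC, 16.6, 20.5 and 19.7 in CL, 15.8, 12.5 and 10.6 in LL, and 7.58, 20.9 and 15.3 in Control. CL lay above CC and LC without overlap. The difference of CL from CC was 0.96 ± 0.42 on the log2 scale (adjusted p = 0.307), and that of LC from Control was -0.88 ± 0.42 (adjusted p = 0.167). The second reached 0.0272 with CC replicate 1 and Control replicate 1 both left out, the lowest of a range up to 0.497. The fungal U3 row (RF01846) had 44 reads and was not tested, with 0.307, 0.433 and 0.703 RPM in LC against 0 to 0.249 in the other 12 libraries.

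The largest snoRNA row, Afu_294 (RF01506), a family named from the mould Aspergillus fumigatus, held 40.3% of the snoRNA members' reads. It stood at 43.7, 67.2 and 152.4 RPM in LC, 6.36, 65.7 and 70.9 in CC, 24.3, 47.7 and 53.9 in CL, 47.6, 62.4 and 31.1 in LL, and 17.6, 54.1 and 41.8 in Control. All groups overlapped. LC against CC gave a log2 change of 0.88 ± 0.71 (adjusted p = 0.417). The extremes were CC replicate 1 and LC replicate 3, which were also the lowest and highest libraries in rRNA reads, at 4747 and 22220 RPM.

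Across the 15 libraries, the level of Afu_294 moved with the rRNA level on log2 scales (Pearson's r = 0.921, Spearman's rho = 0.807, permutation tests with 100000 resamples, p = 2e-05 and 0.00043). Adjusted over the 10 relations computed, one for each of the 10 most abundant members, these were 0.0002 and 0.0043. Without CC replicate 1 and LC replicate 3, the libraries farthest from the median in rRNA, r was 0.741. U6 gave r = 0.656 and rho = 0.643 (adjusted p = 0.0153 and 0.0426), and r = 0.55 without those libraries. Z101 gave r = 0.639 and rho = 0.638 (adjusted p = 0.0153 and 0.0426), and r = 0.606 without them. All CL libraries held 0 reads of Z101 and stayed in each of these values. They were tied at the 0.05 RPM added to members' levels before the log. U1 and snoR113 passed by r (0.651 and 0.662) but not by rho (adjusted p = 0.0648 and 0.0873). Without CC replicate 1 and LC replicate 3 their r was 0.403 and 0.246. U2, U14, snoR14, plant U3 and snoR20a passed neither test. The libraries share the same total in both measures, the groups are pooled in these values, and the labels give no batch within which to repeat them. Permutations ran over all 15 libraries regardless of group, so differences between groups enter these p-values.

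**Figure D3:**
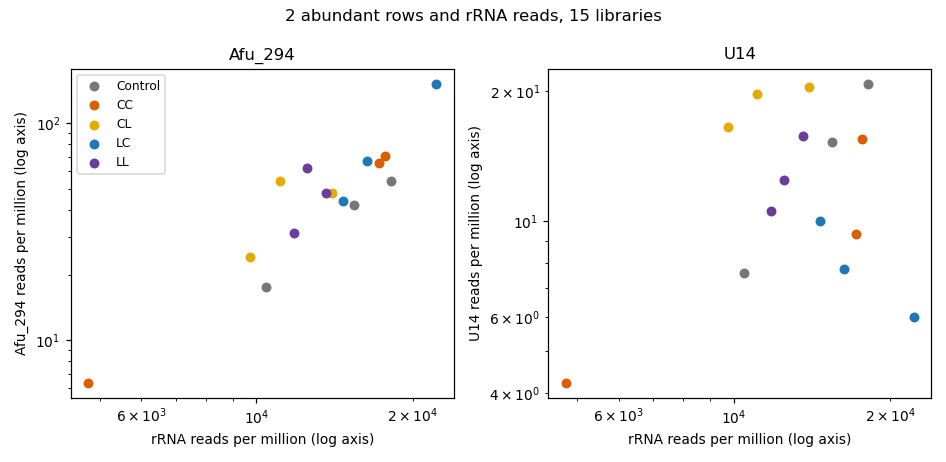
Afu_294 (left) and U14 (right) in RPM against rRNA RPM, 1 point per library coloured by group, both axes logarithmic. Afu_294 runs along the rRNA level from CC replicate 1 (6.36 at 4747) to LC replicate 3 (152.4 at 22220), and U14 shows no such run.

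Cold under full light, asked by LC against CC, gave 5 calls among the 37 tested members, 3 higher and 2 lower. The share called among all features was 17.2%, with 4.54% higher and 12.7% lower. At an unadjusted p under 0.05 there were 8 members (21.6%), against 33.6% of all features. The median log2 change was -0.14 over the tested members and -0.38 over all features. The calls were Afu_455, U6atac and snR79 higher, and U61 and snoR64a lower. Of the tested C/D box guides, 1 of 16 rose and 1 fell. Of those without an assigned class, 1 of 15 rose and 1 fell. The number of members called ranged from 1 to 6 when 1 library was left out. It was 1 without CC replicate 3 or LC replicate 3, 2 without CC replicate 2, LC replicate 1 or 2, CL replicate 1 or 2, Control replicate 2 or any LL library, and 3 without CL replicate 3 or Control replicate 3.

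Cold under weak light, asked by LL against CL, gave 2 calls, Z101 higher and Afu_455 lower. Among all features 3.74% were called, 1.39% higher and 2.34% lower. The unadjusted count was 3 members (8.11%, against 21.3% of all features), and the medians were 0.07 over the members and -0.38 over all features. Leaving out CL replicate 2, CL replicate 3 or LL replicate 1 left 0 calls, and leaving out CL replicate 1, LC replicate 2 or 3, or LL replicate 2 or 3 left 1.

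Weak light in warmth, asked by CL against CC, gave 1 call, snR79 lower. Of all features 1.20% were called, 0.411% higher and 0.786% lower. The unadjusted count was 5 members (13.5%, against 14.5% of all features), and the medians were 0.04 and 0.26. The count was 0 without CC replicate 2, any CL library, any Control library, LC replicate 2 or 3, or LL replicate 2 or 3. It was 2 without CC replicate 3 or LC replicate 1.

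Weak light in cold, asked by LL against LC, gave the most calls, 3 higher (U61, Z152/R70/R12 and snoR64a) and 3 lower (Afu_455, snR79 and U2). Of all features 19.7% were called, 13.0% higher and 6.63% lower, so the members' share of 16.2% was no larger. The unadjusted count was 10 members (27%, against 35.7% of all features), and the medians were 0.25 and 0.16. Without LC replicate 1 or LL replicate 3 the count was 3, and without LC replicate 3, LL replicate 1 or LL replicate 2 it was 2. LC against CC and LL against LC share the LC libraries, so their opposite directions are not separate evidence.

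**Figure D4:**
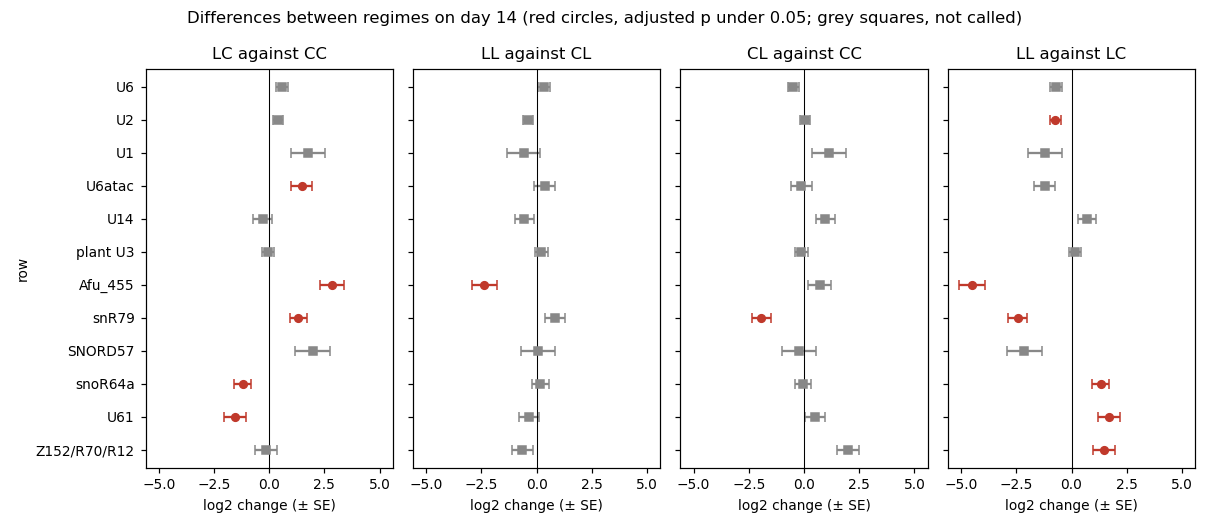
Log2 change with its SE (whiskers) of 12 members in the 4 comparisons between day 14 regimes; red circles were called at an adjusted p under 0.05 and grey squares were not. Afu_455 runs from 2.84 in LC against CC to -4.50 in LL against LC; Z101, with no read in CL, is not drawn.

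Afu_455 (RF01860), another family named from Aspergillus fumigatus, was high in the cold, full-light libraries and low in the cold, weak-light ones. LC held 8.47, 4.08 and 3.39 RPM and LL 0.165, 0.379 and 0.146. In CC it was 0.534, 0.827 and 0.847, in CL 0.789, 1.78 and 1.06, and in Control 0.667, 0.487 and 0.593. Every LC library was above, and every LL library below, all other libraries. It rose 7.17-fold from CC to LC (log2 change 2.84 ± 0.53 SE, adjusted p = 0.00168). It fell 22.6-fold from LC to LL (-4.50 ± 0.59, adjusted p = 8.7e-05) and 5.17-fold from CL to LL (-2.37 ± 0.57, adjusted p = 0.0268). The LL level rests on only 3, 7 and 3 reads, against 138, 66 and 53 in LC and 15, 37 and 22 in CL. Folds against LL are therefore imprecise.

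The temperature difference of Afu_455 itself changed between light levels: the difference of LL from CL minus that of LC from CC was -5.21 ± 0.77 on the log2 scale (adjusted p = 0.000631). The LC against CC, LL against LC and light-by-temperature calls held in all 25 alternatives, with the largest adjusted p at 0.0335, 0.00745 and 0.00328. The LL against CL call was lost in 7 of 25 alternatives. It was lost without CL replicate 2 (0.161), CL replicate 3 (0.0608), LL replicate 1 (0.132) or LL replicate 3 (0.12). It was also lost without the low-count filter (0.0575), with the replicate number as a block (0.0555) and with only the groups compared (0.0541). Its adjusted p ran from 0.00607 to 0.161 over the alternatives. Rows of animal microRNA precursors also had their highest mean in LC and stood near 0 in LL, at the levels given above. They were low in CL too, where Afu_455 was not. In Control replicates 2 and 3 they reached 201.8 and 211.1 RPM, where Afu_455 was at 0.487 and 0.593. The part of these precursor rows in the result was not tested.

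snR79 (RF01184), a C/D box guide of small-subunit rRNA known from yeast, was low in both weak-light groups. It stood at 0.263, 0.432 and 0.530 RPM in CL and 0.606, 0.976 and 0.631 in LL, against 1.80, 1.46 and 1.54 in CC, 3.87, 3.53 and 4.73 in LC, and 1.70, 1.28 and 2.21 in Control. No CL or LL library reached any library of the other 3 groups, and LC was above all others. snR79 fell 5.44-fold from LC to LL (log2 change -2.44 ± 0.42 SE, adjusted p = 0.000815), a call held in all 25 alternatives. It fell 3.86-fold from CC to CL (-1.95 ± 0.43, adjusted p = 0.0379) and rose 2.52-fold from CC to LC (1.33 ± 0.40, adjusted p = 0.0318). The temperature difference at 40% light was 0.84 ± 0.44 (adjusted p = 0.277), and the test of the difference between light levels gave -0.50 ± 0.61 (adjusted p = 0.694).

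The smaller snR79 differences were lost under other settings with all libraries kept as well as without single libraries. Scaling to named rows gave an adjusted p of 0.0851 in CL against CC and 0.114 in LC against CC. Without the low-count filter these were 0.13 and 0.11, and with the replicate number as a block 0.0985 and 0.078. The CL against CC call was lost in 18 of 25 alternatives, with adjusted p from 0.00101 to 0.188. It was 0.172, 0.188 and 0.0938 without CL replicates 1, 2 and 3, and 0.0539, 0.0854 and 0.0722 without CC replicates 1, 2 and 3. It was 0.0616, 0.0541 and 0.0637 without Control replicates 1, 2 and 3, 0.0557 and 0.0708 without LC replicates 2 and 3, and 0.065 and 0.0538 without LL replicates 2 and 3. The LC against CC call was lost without CC replicate 2 (0.0805), CC replicate 3 (0.084), or LC replicate 1, 2 or 3 (0.0543, 0.06 and 0.133), in a range of 0.00162 to 0.133. The animal-named mir-7 precursor row is 1 of the 66 on the list made after their values were seen. Others on it, such as mir-221, had a different pattern. The mir-7 row showed levels of 3.83 to 4.97 RPM in LC, 1.94 to 2.43 in CC, 0.788 to 4.44 in Control, 0.0485 to 0.0551 in LL and 0 in CL. The part of such rows in the snR79 result was not tested.

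Z101 (RF00358), a plant C/D box guide, had no read in any CL library. LL held 8.48, 11.8 and 5.92 RPM, CC 0.0485, 14.6 and 9.67, LC 4.24, 6.93 and 10.6, and Control 1.21, 6.69 and 3.93. The count of 0 among all CL reads allows up to 0.0495 RPM (3 counts over the group, counting error only), and CC replicate 1 stood at that level with 1 read. Z101 was at least 174-fold higher in LL than in CL (adjusted p = 0.0261), at least 163-fold higher in CC than in CL (0.0557, not called) and at least 79.6-fold higher in Control than in CL (0.0585, not called). Without CC replicate 1 both uncalled differences passed (adjusted p = 0.000825 and 0.000789), and each passed in 6 alternatives, in ranges of 2.09e-06 to 0.232 and 2.03e-05 to 0.189. The light-by-temperature difference was called (adjusted p = 0.0253), with no size given because one group is at 0.

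The Z101 call in LL against CL was lost without CL replicate 1, 2 or 3 (0.0857, 0.1 and 0.0818), LC replicate 2 or 3 (0.0535 and 0.0504), or LL replicate 1 or 2 (0.0621 and 0.0871). It was also lost without the low-count filter (0.0822). Its range over the alternatives was 6.39e-07 to 0.1. The light-by-temperature call was lost without CC replicate 3 (0.0535), CL replicate 1, 2 or 3 (0.0578, 0.0682 and 0.0537), LC replicate 1, 2 or 3 (0.0701, 0.065 and 0.0547) or LL replicate 2 (0.0612). Without the low-count filter it was lost too (0.0703). The other C/D box guides, summed without Z101, stood at 22.8, 34.0 and 28.2 RPM in CL and between 8.88 and 31.1 RPM in the other 12 libraries, so CL replicate 2 was the highest library in that sum.

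SNORD57 (RF00274), a C/D box guide named in human, was nearly constant within LC. It stood at 2.52, 2.54 and 2.75 RPM there, against 0.194, 0.486 and 1.30 in CC, 0.421, 0.480 and 0.771 in CL, 0.606, 0.813 and 0.340 in LL, and 0.303, 0.547 and 0.431 in Control. All LC libraries were above all others. SNORD57 rose 6.01-fold from Control to LC (log2 change 2.59 ± 0.81 SE, adjusted p = 0.0455). LC against CC gave 1.97 ± 0.79 (adjusted p = 0.0953) and LL against LC -2.14 ± 0.79 (adjusted p = 0.0695), and the second had an adjusted p of 0.0375 without CC replicate 1. Over the alternatives these ran from 0.0146 to 0.219 and from 0.0103 to 0.187.

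The SNORD57 call was lost in 17 of 24 alternatives, with adjusted p from 0.0022 to 0.134. Without Control replicates 1, 2 and 3 it was 0.134, 0.0862 and 0.122, and without LC replicates 1, 2 and 3 it was 0.0822, 0.115 and 0.131. Without CL replicates 1, 2 and 3 it was 0.0635, 0.0716 and 0.0581, and without LL replicates 1, 2 and 3 it was 0.0563, 0.0664 and 0.0504. A thinner row, snR55/Z10 (RF00472, 62 reads), a C/D box guide known from yeast, was also highest in LC. Its level was 1.04, 0.619 and 0.703 RPM in LC and 0 to 0.217 in the other 12 libraries, so it cleared the low-count filter only through LC. It was called in no comparison with all features, where LC against CC had an adjusted p of 0.214, LL against LC 0.299 and LC against Control 0.351. Without predicted siRNAs among the features these were 0.0107, 0.0201 and 0.0394, the lowest of ranges that reached 0.435, 0.49 and 0.589.

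The members called lower in LC than in CC were snoR64a and U61. snoR64a (RF01163), whose box class was not assigned here, stood at 1.04, 1.36 and 0.894 RPM in LC, 1.26, 3.01 and 3.29 in CC, 2.37, 2.35 and 2.65 in CL, 2.81, 3.14 and 2.33 in LL, and 3.52, 2.80 and 5.07 in Control. LC lay below CL, LL and Control and overlapped with CC through CC replicate 1. snoR64a fell 3.44-fold from Control to LC (log2 change -1.78 ± 0.39 SE, adjusted p = 0.0061), held in all 25 alternatives. It was 2.50-fold higher in LL than in LC (1.32 ± 0.39, adjusted p = 0.0262) and fell 2.28-fold from CC to LC (-1.19 ± 0.39, adjusted p = 0.0449).

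The LL against LC call of snoR64a was lost without LC replicate 1 (0.0627), LC replicate 3 (0.0927), LL replicate 1 (0.0682) or LL replicate 2 (0.0926). It was also lost without the low-count filter (0.0586), in a range of 0.00474 to 0.0927. The LC against CC call was lost in 17 of 25 alternatives (0.00717 to 0.186). It was 0.121 and 0.15 without CC replicates 2 and 3, 0.0968, 0.061 and 0.147 without LC replicates 1, 2 and 3, and 0.067, 0.072 and 0.0627 without CL replicates 1, 2 and 3. It was 0.0637, 0.0523 and 0.0575 without Control replicates 1, 2 and 3, and 0.064, 0.0688 and 0.0618 without LL replicates 1, 2 and 3.

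U61 (RF01170), a C/D box guide, had its lowest mean in LC, as snoR64a did, and its highest in CL rather than in Control. LC held 0.614, 1.36 and 0.447 RPM, CC 0.922, 2.97 and 3.24, CL 2.94, 3.75 and 3.37, LL 2.92, 2.44 and 2.57, and Control 1.27, 2.13 and 2.10. LC lay below CL and LL and overlapped with CC and Control. U61 was 3.25-fold higher in LL than in LC (log2 change 1.70 ± 0.49 SE, adjusted p = 0.0237), lost without LC replicate 1 (0.0736), LC replicate 3 (0.0953) or LL replicate 1, 2 or 3 (0.0731, 0.0556 and 0.0585), in a range of 0.00188 to 0.0953. It fell 2.92-fold from CC to LC (-1.55 ± 0.49, adjusted p = 0.0385), lost in 15 of 25 alternatives (0.00708 to 0.228). Those were, among single libraries, CC replicates 2 and 3 (0.114 and 0.138), LC replicates 1 and 3 (0.11 and 0.15), CL replicates 1, 2 and 3 (0.0579, 0.0647 and 0.0604), Control replicates 2 and 3 (0.0525 and 0.0573) and LL replicates 1, 2 and 3 (0.0586, 0.0613 and 0.0601).

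Z152/R70/R12 (RF00350), a plant C/D box guide, was higher in both weak-light groups. It stood at 3.05, 6.05 and 4.05 RPM in CL and 3.25, 2.98 and 2.18 in LL, against 0.534, 0.875 and 1.89 in CC, 0.798, 0.928 and 1.28 in LC, and 1.03, 2.98 and 1.99 in Control. No CC or LC library reached a CL or LL library. It was 2.79-fold higher in LL than in LC (log2 change 1.48 ± 0.49 SE, adjusted p = 0.0445), and CL against CC gave 1.99 ± 0.49 (adjusted p = 0.0611, not called). The second passed without CC replicate 3 (0.0287) or LC replicate 1 (0.0439), in a range of 0.00277 to 0.339.

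The LL against LC call of Z152/R70/R12 was lost in 12 of 25 alternatives (0.00892 to 0.129). It was 0.12, 0.12 and 0.0689 without LC replicates 1, 2 and 3, and 0.129, 0.117 and 0.0675 without LL replicates 1, 2 and 3. It was 0.059, 0.0672 and 0.0678 without CL replicates 1, 2 and 3, 0.0564 without CC replicate 2 and 0.0645 without Control replicate 3.

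**Figure D5:**
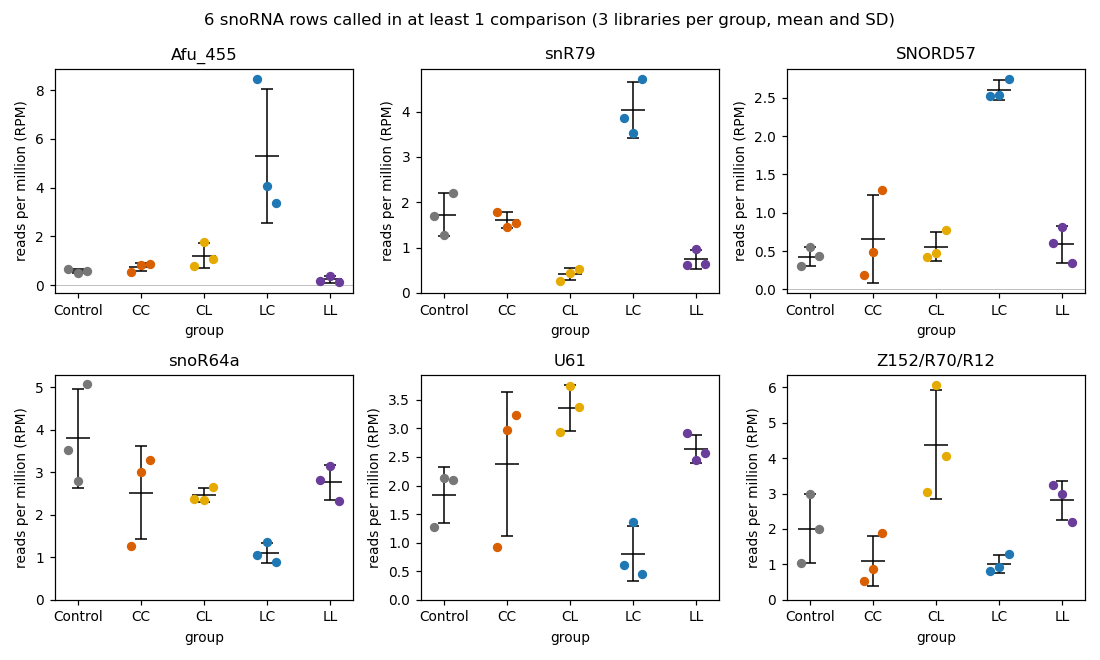
RPM of 6 snoRNA rows in each library (points, 3 per group) with the group mean (bar) and SD (whiskers). In LC, Afu_455, snR79 and SNORD57 lie above all other libraries, while snoR64a and U61 lie below those of CL and LL; Z152/R70/R12 is higher in CL and LL than in CC and LC.

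The other abundant snoRNAs were called in no comparison. snoR14 ranged from 2.62 RPM in CC replicate 1 to 14.4 in CL replicate 3, with group means between 5.28 in LC and 11.5 in CL. snoR113 ranged from 1.55 in CC replicate 1 to 8.75 in LC replicate 3, and snoR20a from 1.07 in CC replicate 1 to 5.44 in CC replicate 2. Their group means lay between 4.08 and 6.17 RPM for snoR113 and between 2.28 and 4.53 for snoR20a. All 3 rows had their lowest library in CC replicate 1. Of the 37 tested members, 10 were called in at least 1 of the 9 comparisons and 27 in none. The share of all features called in at least 1 comparison was not computed, so these counts have no baseline. For each comparison, the share called among all features is given beside the members' calls.

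The comparisons with day 0 differ from those between regimes in sampling day as well as regime, and all share the same 3 Control libraries. CC against Control gave 0 calls among the 37 members with edgeR and 0 with DESeq2, and 0 members had an unadjusted p under 0.05, against 15.0% of all features. Among all features 1.32% were called, 0.572% higher and 0.751% lower. The median log2 change was -0.04 over the members and 0.17 over all features.

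CL against Control gave 1 call, snR79, which fell 4.17-fold (log2 change -2.06 ± 0.44 SE, adjusted p = 0.0178). Among all features 2.65% were called, 1.27% higher and 1.38% lower. The snR79 call was lost without CL replicate 1 (0.0925), CL replicate 2 (0.0844) or Control replicate 3 (0.0927). It was also lost without the low-count filter (0.0642) and with the replicate number as a block (0.0537). Its adjusted p ran from 0.000163 to 0.0927, and the count of members was 2 without CC replicate 1. The unadjusted count was 3 members (8.11%, against 20.2% of all features), with medians of 0.17 and 0.47.

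LC against Control gave 4 calls, Afu_455, U6 and SNORD57 higher and snoR64a lower. Among all features 13.2% were called, 3.75% higher and 9.42% lower. Afu_455 rose 9.04-fold (log2 change 3.18 ± 0.54 SE, adjusted p = 0.00099), held in all 25 alternatives. snR79 gave 1.22 ± 0.40 (adjusted p = 0.0565, not called), which reached 0.0456 without CC replicate 1, in a range of 0.00911 to 0.192. U61 gave -1.18 ± 0.49 (adjusted p = 0.123), which reached 0.0491 without LC replicate 2, in a range of 0.0471 to 0.31. The unadjusted count was 6 members (16.2%, against 30.7% of all features), with medians of -0.07 and 0.00, and 2 members were called without Control replicate 1 or LC replicate 3.

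LL against Control gave 0 calls with edgeR, 1 with DESeq2 (snR79, chosen for naming after its values were seen) and 4 at an unadjusted p under 0.05 (10.8%, against 17.7% of all features). Among all features 2.02% were called, 0.858% higher and 1.16% lower. snR79 gave a log2 change of -1.22 ± 0.42 (adjusted p = 0.152 with edgeR and 0.0487 with DESeq2, in a range of 0.0338 to 0.381). The medians were 0.21 over the members and 0.00 over all features.

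The test of whether the temperature difference changed with light gave 2 calls, Z101 and Afu_455, described above. Among all features 10.9% were called, 7.01% higher and 3.91% lower, and 5 members (13.5%) had an unadjusted p under 0.05, against 27.3% of all features. The medians were -0.22 over the members and 0.10 over all features. The count was 1 without CC replicate 3, any CL library, any LC library or LL replicate 2. For snoR64a the difference was 1.36 ± 0.53 (adjusted p = 0.111, and 0.0243 without CC replicate 1, in a range of 0.0243 to 0.239). For U2 it was -0.79 ± 0.34 (adjusted p = 0.142), and for U6 -0.22 ± 0.38 (adjusted p = 0.834).

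The 44 members below the filter held 1078 reads together and gave no test. SNORD61, a C/D box guide named in human, had 34 reads, none in CL or LL, 18 in CC, 6 in LC and 10 in Control. Of the 18 CC reads, 14 were in CC replicate 2, 4 in CC replicate 3 and 0 in CC replicate 1. sR10, named in archaea, had 21 reads and reached the minimum of 10 only through LC, with 11 reads in LC replicate 1, 4 and 3 in the other LC libraries, 2 in Control, 1 in CC and none in CL or LL. SNORD74, a human-named guide, also reached the minimum only through LC. It had 14 reads, 4 in Control replicate 3, 9 in LC replicate 1 and 1 in LC replicate 2. The precursor row of animal mir-221 was also concentrated in those libraries, with 28.9 RPM in Control replicate 3 and 40.9 in LC replicate 1 against 0 to 1.46 elsewhere, and its part in SNORD74 was not tested. These 3 rows were chosen after their values were seen.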

How the data were processed

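Small RNA libraries came from leaf total RNA, per the labels' protocols extracted with an RNeasy kit and turned into libraries (Small RNA Sample Pre Kit), amplified and cut from a PAGE gel. The authors deposited 1 table with a read count and a TPM column for each of 15 libraries. The deposited TPM equals the count scaled to 1000000 of the column total, with no length term. The aligner, genome build and annotation were not given in the sources used here. siRNA and miRNA rows hold no count between 0 and 10, while snRNA and snoRNA rows do. The pooled exon, intron and intergenic rows held 67.8 to 86% of each library and stayed in the column total. Reads were not independent molecules, so floors cover counting error only.

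Counts were tested in edgeR 4.0.16 (R 4.3.3), with glmQLFit (robust), all 15 libraries, 1 mean per group, library size as the column total, no composition factor, the default group filter (minimum count 10) and Benjamini-Hochberg adjustment over 5595 features. The SE is the log2 change divided by the root of F. The biological coefficient of variation was 0.829. The procedure was checked on simulated data. Alternatives were TMM and DESeq2-type size factors, DESeq2 1.42.0, other filters and library sizes, no predicted siRNAs, only the groups compared, a replicate block, and leaving out libraries; 1 was added after seeing the data. Same-numbered libraries did not deviate together over all 5595 features, a check not made on the members alone. No pair of libraries of a group agreed within counting noise over the members. Named members were the 10 with most reads, up to 10 called per direction and comparison with groups apart and a mean of at least 1 RPM, all spliceosomal and rRNA-cutting rows, and the rows next to the read minimum; others are marked or were called with overlapping groups. The members and lists were chosen with earlier results of these data known. Correlations used 100000 permutations (scipy 1.17.1), two-sided.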

Additional observations from a re-analysis of the deposited data

Results flagged for a closer look

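The temperature difference of Afu_455 was in opposite directions at the 2 light levels, and the test of that difference between light levels gave an adjusted p of 0.000631 (edgeR's quasi-likelihood test). It was higher in cold at 100% light in 3 of 3 libraries and lower in cold at 40% light in 3 of 3. The cold libraries at 40% light held only 3, 7 and 3 reads of Afu_455. Its call at 40% light alone (LL against CL) was lost in 7 of 25 alternatives.

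The temperature difference of Z101 also differed between light levels (adjusted p = 0.0253), since its CL libraries held no read while LC and CC overlapped.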

How the results depend on the processing

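Of the 21 called member differences, 6 kept their call in all alternatives: Afu_455 in LC against CC, LL against LC, LC against Control and the light-by-temperature test, snR79 in LL against LC, and snoR64a in LC against Control. Over 524 recomputed values of those 21 differences, 365 kept the call, 159 lost it and 0 changed direction. The causes were not tested, except that leaving out a library or a group removes samples, and no filter adds features to the adjustment. Thin rows limit what can be seen, since 46 members had under 100 reads.

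Calls among members were 5 in LC against CC, 2 in LL against CL, 1 in CL against CC, 6 in LL against LC, 1 in CL against Control, 4 in LC against Control, 0 in the other 2 day 0 comparisons and 2 in the light-by-temperature test. Only the larger moves of these counts follow, so a count not listed was not always unchanged. In LL against LC, for example, SNORD57 and snR55/Z10 were also called without predicted siRNAs. DESeq2 also called SNORD57, R16 and U6atac there. The counts given below over all features are likewise not complete. Scaling to named rows gave 3 in LC against CC, 0 in CL against CC and 2 in LC against Control. TMM gave 2 in CL against CC. No filter gave 1 in LC against CC, 0 in LL against CL, CL against CC and CL against Control, 3 in LL against LC and 1 in the light-by-temperature test. The stricter filter (mean of at least 1 RPM) gave 3 in CL against CC and 2 in CL against Control. Without predicted siRNAs the counts were 8 in LC against CC, 3 in CL against CC, 2 in CL against Control and 1 in LL against Control. DESeq2 gave 4 in CL against CC, 2 in CL against Control and 1 in LL against Control. Fitting only the groups compared gave 2 in LC against CC, 5 in LL against CL, 0 in CL against CC, 10 in LL against LC and 2 in CL against Control.

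Leaving out libraries moved the members' counts between 1 and 6 in LC against CC, 0 and 2 in LL against CL, 0 and 2 in CL against CC, 2 and 10 in LL against LC, 0 and 2 in CL against Control, 2 and 7 in LC against Control, and 1 and 5 in the light-by-temperature test. The upper ends of 10, 7 and 5 came with CC replicate 1 and Control replicate 1 both left out, an alternative chosen after seeing the data.

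Over all 5595 features tested, most of them predicted siRNAs, replicate numbers did not pair the libraries. Of 30 same-numbered pairs, 7 correlated above 0.1 in their deviations (range -0.218 to 0.244). The members were not checked alone. In their snoRNA sum, replicate 1 was the lowest library of CC, CL, Control and LC, at 35.5, 97.4, 64.3 and 109.7 RPM. In LL the lowest was replicate 3, at 106.5 RPM. With the replicate number as a block, members called were 2 in LC against CC, 1 in LL against CL, 0 in CL against CC and 0 in CL against Control. Features called were 39 in CL against CC, 41 in CC against Control, 98 in CL against Control and 70 in LL against Control.

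Over all features, 962 were called in LC against CC, 209 in LL against CL, 67 in CL against CC, 1101 in LL against LC, 74 in CC against Control, 148 in CL against Control, 737 in LC against Control, 113 in LL against Control and 611 in the light-by-temperature test. Without predicted siRNAs these were 150, 68, 40, 175, 61, 97, 94, 60 and 80 in that order. DESeq2 gave 516 in LL against CL, 303 in CL against CC, 321 in CC against Control, 438 in CL against Control, 1272 in LC against Control, 427 in LL against Control and 1084 in the light-by-temperature test. Only the groups compared gave 598 in LC against CC, 1067 in LL against CL, 14 in CL against CC, 40 in CC against Control, 727 in CL against Control and 223 in LL against Control. The stricter filter gave 103 in CL against CC, and named rows gave 277 in CL against Control. With libraries left out, the range was 76 to 307 in LL against CL, 16 to 112 in CL against CC, 692 to 1087 in LL against LC, 36 to 116 in CC against Control, 66 to 208 in CL against Control, 40 to 208 in LL against Control and 350 to 599 in the light-by-temperature test.

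The log2 ratio of summed snRNA means was 0.18 in LL against CL, and -0.05 with named rows or -0.39 without U6. It was -0.31 in CL against CC, and 0.26 without U6. It was -0.74 in LL against LC, and -0.46 with named rows.

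Other scalings shifted the median log2 change of all features by more than 0.1 as follows. Named rows shifted it by -0.25 in LC against CC, -0.23 in LL against CL, 0.23 in CL against CC, 0.24 in LL against LC, 0.14 in CC against Control, 0.37 in CL against Control and 0.15 in LL against Control. TMM shifted it by 0.20 in LL against CL, -0.12 in CL against CC, -0.20 in CL against Control, -0.11 in LC against Control and 0.22 in the light-by-temperature test. Relative log expression (RLE) size factors and DESeq2 each shifted it by 0.12 in LL against CL. The share of calls that were higher moved from 26.4% to 14.4% in LC against CC, from 37.3% to 22.9% in LL against CL, from 34.3% to 62.2% in CL against CC, from 66.3% to 78.9% in LL against LC, from 48% to 75.5% in CL against Control and from 42.5% to 55.7% in LL against Control with named rows. It moved to 54.2% in LL against CL and 36.1% in CL against Control with TMM, and to 47.7% in LL against CL with RLE. With DESeq2 it was 47.9% in CL against CC, 62% against 43.2% in CC against Control, 59.6% in CL against Control and 56.2% in LL against Control.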

Other observations

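R16 and R66, plant C/D box guides chosen after their values were seen, were called in no comparison by edgeR's whole-table fit and had low LC levels. R16 stood at 1.10, 1.49 and 1.47 RPM in LC, 3.80, 3.85 and 4.803 in LL, 0.534, 2.97 and 4.88 in CC, 1.74, 3.51 and 4.24 in CL, and 1.52, 3.83 and 3.88 in Control. R66 stood at 0.614, 1.30 and 1.09 RPM in LC, 2.20, 2.55 and 2.47 in LL, 0.340, 2.72 and 4.09 in CC, 1.47, 2.11 and 2.31 in CL, and 1.33, 2.07 and 3.93 in Control. Every LC library lay below every LL library in both rows, and CC replicate 1 was the lowest library of both. In LC against CC the adjusted p (edgeR's quasi-likelihood test) was 0.21 for R16 and 0.176 for R66 with all libraries. Without CC replicate 1 it was 0.0403 for R16 (log2 change -1.53) and 0.0233 for R66 (-1.76). Over all 25 alternatives these ran from 0.0198 to 0.799 for R16 and from 0.0143 to 0.618 for R66, each passing in 2. In LL against LC, R16 had an adjusted p of 0.0632 and passed in 6 of 25 alternatives (0.00683 to 0.156). These included all-library fits, with 0.0416 when scaled to named rows, 0.0136 with DESeq2 and 0.0252 with the replicate block, as well as 0.00859 with only the groups compared and 0.0151 without CC replicate 1 (log2 change 1.61). R66 in LL against LC had 0.161 and passed in 2 (0.0356 to 0.338), one of them with only the groups compared (0.0486). With CC replicate 1 and Control replicate 1 both left out, an alternative chosen after seeing the data, both rows also passed in LC against Control (0.0239 and 0.0279) and in the light-by-temperature test (0.0301 and 0.0331).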
